A study of Mus musculus with 14 samples.

Results

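The genes described here are the cell cycle inhibitor p21, encoded by Cdkn1a, and 6 other genes of the p53 pathway, namely Mdm2, Ccng1, Gadd45a, Btg2, Trp53 and Bax. They were chosen by name, as every probe set annotated to these symbols alone, and Cdkn1a headed the list because an earlier pass over the same arrays had placed it among the probe sets of smallest p between UC and CC. Of 22690 probe sets on the array, 10 were annotated to 5 of the 7 genes, with 2 each for Cdkn1a, Mdm2 and Btg2, 3 for Ccng1 and 1 for Gadd45a. Trp53 and Bax were not analysed here. Affymetrix arrays measured RNA from epididymal fat, the white fat pad beside the testis, in 14 mice of the ICR strain that were 3 weeks old and labelled male. UC mice (n = 5) came from dams whose food was cut by 50% in pregnancy and were suckled under free feeding. UU mice (n = 4) were restricted in this way in utero and once more through suckling, and CC mice (n = 5) had free feeding in both periods. Litters are not named in the labels, so the p-values measure only the spread between these samples.

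The transcription factor p53 is kept low in unstressed cells by the ubiquitin ligase Mdm2, itself a p53 target, which closes a feedback loop. When DNA damage, oncogenes or nutrient stress stabilise p53, it binds response elements near its target genes and raises their transcription. Its best known target is p21, which binds cyclin-dependent kinases and the replication clamp PCNA and halts the cell cycle. In fat, p21 is also under the control of signals other than p53 and is linked to adipocyte differentiation and to senescence.

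The promoters of the members show which of them carry a p53 response element close to a transcription start. The genes were chosen as members of the p53 pathway, so finding such elements is not independent of that choice. The 250 bases before each RefSeq start were compared with the 20 base p53 consensus, which reads the same on both strands. The closest match had 1 mismatch in the upstream of the 2 Cdkn1a starts and 1 in Ccng1. These windows are given in GRCm38.p6, each read 5′ to 3′ along its gene, with the matching element in capitals.
Cdkn1a, upstream start, chr17:29090729-29090978, plus strand: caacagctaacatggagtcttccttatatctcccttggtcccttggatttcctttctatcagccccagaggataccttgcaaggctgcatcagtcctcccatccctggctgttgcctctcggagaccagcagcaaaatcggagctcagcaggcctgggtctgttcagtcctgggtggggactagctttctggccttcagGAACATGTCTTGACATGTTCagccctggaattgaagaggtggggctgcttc
Ccng1, chr11:40755287-40755536, minus strand: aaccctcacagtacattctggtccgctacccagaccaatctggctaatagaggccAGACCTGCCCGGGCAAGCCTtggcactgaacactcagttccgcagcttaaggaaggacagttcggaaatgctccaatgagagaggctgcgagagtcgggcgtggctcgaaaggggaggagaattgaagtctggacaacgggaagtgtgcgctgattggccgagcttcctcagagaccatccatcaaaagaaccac
The Cdkn1a element lies at chr17:29090928-29090947 and departs from the consensus at position 11, counted from 1 at its 5′ end. The Ccng1 element lies at chr11:40755462-40755481 and departs at position 5. Of 32851 promoter windows in the table, 25 (0.0761%) held an element with at most 1 mismatch. The downstream Cdkn1a start, 2790 bases further on, had 5 mismatches at best, as did Mdm2, and Btg2 had 6. Gadd45a had 3, a number that 5.32% of windows reached or bettered. A match describes letters only, and elements outside these windows, such as those known in introns of Mdm2 and Gadd45a, were not searched.

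Before the members are compared, the samples need a word, since several stand apart. Expression of 8 adipocyte markers, of 10 listed, summed to between 135018.9 and 377832.7 in the 14 samples. Adipoq, the adiponectin gene, was between 25263 and 88737. Lep, the leptin gene, ran lower, at 85.6 to 5948.4 in UU, 8007 to 15556 in UC and 2746.9 to 10200 in CC. The summed signal of 6 epididymis markers, of 12 listed, was 1515.2 and 2158.3 in UC replicates 2 and 5 and 950 and 2014.8 in CC replicates 2 and 4, against 30854 to 136390.9 in the other 10 samples, all 4 UU samples among them. Xist, which is expressed from an inactive X chromosome, was at 5642.5 in UC replicate 5 and 3980.6 in CC replicate 2, against 481.2 to 1324.3 elsewhere. The Y-linked Eif2s3y was at 7.9 and 58.6 in these samples and at 1234.9 or more in the other 12, which goes against the male label of both. Skeletal muscle markers summed to 24820 and 24148 in CC replicates 2 and 5, against 1956.2 to 4282.3 in the other 12 samples. Values without the samples low in epididymis markers are given with each gene, for some probe sets and comparisons only. Values without the samples high in Xist are given for some of the genes. In whole fat pads, fewer cells of a type and less RNA per cell cannot be told apart.

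Cdkn1a, at chr17:29090979-29100722, had higher mean signals in UC and UU fat than in CC fat. Its bright probe set, 1424638_at, had signals of 6933.4, 6529.5, 5510.9, 5918.2 and 4351.3 in UC replicates 1 to 5. It was at 4997.3, 4608.3, 4359.4 and 4119.5 in UU replicates 1 to 4. The CC replicates 1 to 5 were at 2950.9, 2022.3, 3056.5, 1742.4 and 4563.2. All 9 samples of restricted dams therefore lay above 4 of the 5 CC samples, and CC replicate 5 alone kept the groups from separating. CC replicate 5 was 1 of the 2 samples high in muscle markers, and the other, CC replicate 2, was low in Cdkn1a at 2022.3. By mean the order was UC at 5849 ± 1000 (SD, n = 5), UU at 4521 ± 375 (n = 4) and CC at 2867 ± 1107 (n = 5).

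**Figure D1:**
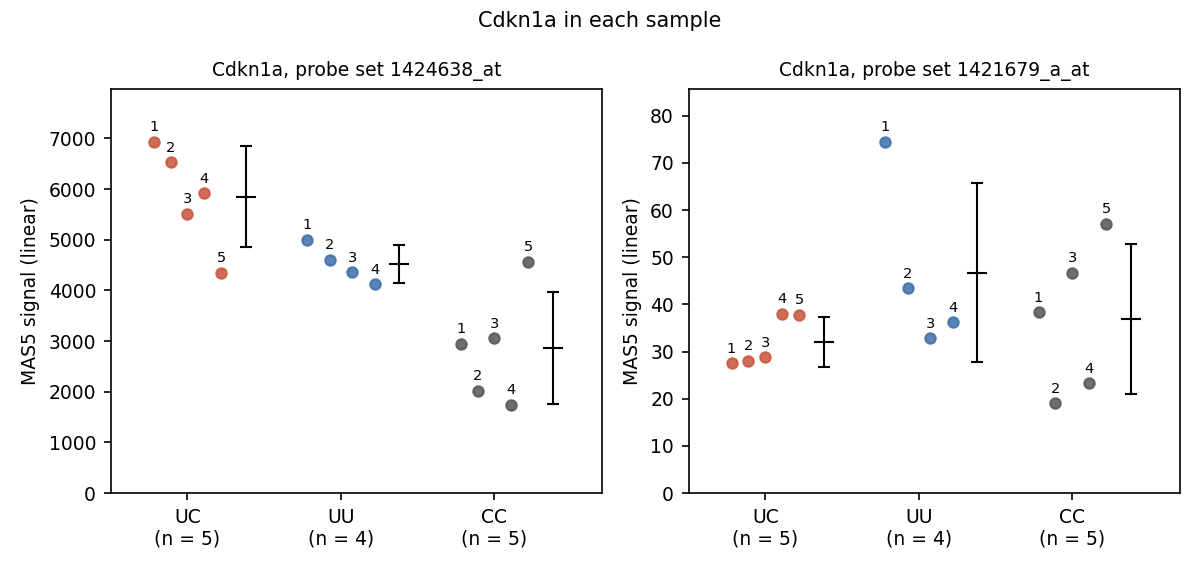
MAS5 signal on a linear scale for the 2 Cdkn1a probe sets, 1 point per sample with its replicate number and, beside each group, the mean ± SD. The left panel shows UC at 4351.3 to 6933.4, UU at 4119.5 to 4997.3 and CC at 1742.4 to 4563.2, while the right panel runs only from 19.1 to 74.5 with all 3 groups overlapping.

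UC over CC gave a log2 difference of 1.08 ± 0.22 (SE) for 1424638_at, a 2.12-fold higher level on the log2(signal + 32) scale. This contrast chose the gene, so the value is a description without a test. In UU over CC the same probe set differed by 0.73 ± 0.23, or 1.66-fold, and limma did not call it over the 13575 probe sets above the signal filter (adjusted p = 0.171, and 0.124 to 0.417 over the alternative fits). This comparison uses the same CC samples as the one that chose the gene. UC exceeded UU by 0.35 ± 0.23, with a 95% interval of -0.14 to 0.85 (limma adjusted p = 0.457), and 4 of 5 UC samples lay above the highest UU sample. UC and UU, neighbours in the order of levels, were therefore not separated beyond their spread.

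Among CC samples, the lowest Cdkn1a signals were those of replicates 2 and 4, which were also low in epididymis markers. Without the 4 samples low in these markers the difference was 0.81 ± 0.20 for UC over CC and 0.38 ± 0.19 for UU over CC (limma adjusted p = 0.417), both lower than with all samples. Without the 2 samples of high Xist the differences were 1.08 and 0.63. Within the 4 samples low in these markers, 2 UC against 2 CC, it was 1.49. Without CC replicate 5 alone the difference was 1.27 in UC and 0.92 in UU. With the epididymis level as a covariate in the fit of all 14 samples it was 1.12 ± 0.19 in UC and 0.60 ± 0.20 in UU.

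Transcripts of liver also moved with UC. All 10 liver markers listed had a probe set and 5 were above the signal filter. Their summed signal was 13854 to 92078 in UC, 4964.5 to 6862.5 in UU and 3028.7 to 12783 in CC, so that by this sum every UC sample lay above every CC sample and UU lay within the CC range. The sum depends on Serpina1b, at 6433.6 to 12551 in UC, 36.2 to 2366.7 in UU and 1629.1 to 10924 in CC. By the mean log2 level of the 10 markers the groups were at 8.31 to 12.3 in UC, 8.27 to 8.77 in UU and 7.44 to 8.49 in CC, so that UC replicate 5 lay below CC replicates 1 and 3, and UU replicates 3 and 4 lay above all CC samples. All UU samples were above all CC samples in Alb, Apoa2, Ttr and Fgg. Of the defining markers, Alb, the albumin gene, was at 1324 to 25660 in UC, 1022 to 1520.4 in UU and 550.4 to 961.9 in CC. Fgb, a fibrinogen chain gene, was at 8 to 997.4 in UC, while it stayed near 0 in UU at 10.8 to 17.6 and in CC at 6.1 to 14.1. UC replicate 2 had the highest liver level and the second highest Cdkn1a signal, and UC replicate 5 had the lowest of UC in both. With the mean liver level as a covariate, chosen after seeing the data, the Cdkn1a difference was 0.84 ± 0.27 in UC over CC, 0.66 ± 0.23 in UU over CC and 0.18 ± 0.26 in UC over UU.

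RNA quality was followed by the log2 ratio of 3′ over 5′ signal of Actb and Gapdh, which rises as RNA is degraded. The ratio was 0.90 to 1.63 in UC, 0.75 to 2.11 in UU and 0.40 to 1.08 in CC. With this ratio as a covariate the Cdkn1a difference was 1.11 ± 0.25 in UC over CC and 0.75 ± 0.26 in UU over CC, as large as without it.

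**Figure D2:**
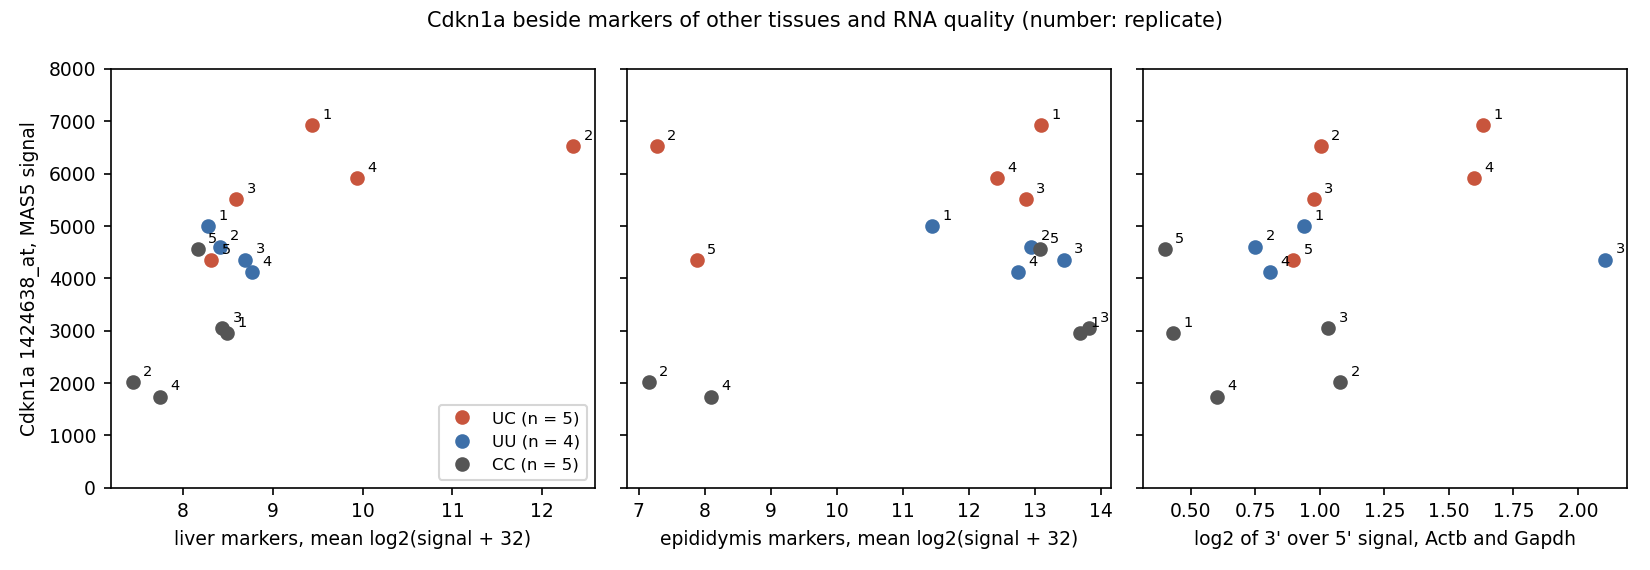
Signal of Cdkn1a probe set 1424638_at in each sample (y axis, linear) against the mean log2 level of 10 liver markers, of 6 epididymis markers, and the log2 ratio of 3′ over 5′ signal of Actb and Gapdh (x axes). Points are samples, coloured by group and numbered by replicate. The 4 UU samples sit within 8.27 to 8.77 on the liver axis and above 4 of the 5 CC samples in Cdkn1a, and CC replicates 2 and 4 are low on both the epididymis axis and in Cdkn1a.

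The second Cdkn1a probe set, 1421679_a_at, did not show this pattern. It had signals of 27.5, 28.1, 28.8, 38 and 37.8 in UC, 74.5, 43.4, 32.9 and 36.2 in UU and 38.4, 19.1, 46.7, 23.3 and 57.1 in CC. All 14 values lay far below the filter at a signal of 453.1, and the probe set's mean stood at the 3.07th percentile of all probe sets, where the bright one stood at the 90th. The log2 differences were -0.08 ± 0.25 for UC over CC and 0.20 ± 0.26 for UU over CC, and -0.32 and -0.03 without the 4 samples low in epididymis markers. Over the 14 samples the 2 probe sets gave Pearson r = 0.29 (permutation p = 0.312) and Spearman rho = 0.09 (permutation p = 0.775), with adjusted values of 0.375 and 0.775 over the 6 pairs of probe sets compared. Leaving out CC replicates 2 and 4, the samples farthest from the median, turned r to -0.32, while r of the deviations from the group means was 0.64. A probe set this dim cannot show whether the bright one is borne out, and which part of the transcript each one reads was not examined here.

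Ccng1, at chr11:40748552-40755309, encodes cyclin G1, a p53 target that recruits a phosphatase to Mdm2. It was lowest in UU by all 3 of its probe sets. For 1420827_a_at, the brightest, signals were 6628.9, 8039.3, 6663.7, 7632.1 and 7333.4 in UC. They were 4247.9, 5530.8, 5826.7 and 4882 in UU and 5380.6, 9745.3, 6586.8, 5599.9 and 5945.7 in CC. Every UC sample lay above every UU sample, while CC overlapped with both, and 2.9% of all probe sets separated UC from UU in this direction. UC exceeded UU by 0.51 ± 0.17 on the log2 scale, or 1.42-fold (limma adjusted p = 0.191, and 0.113 to 0.478 over the alternative fits).

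For 1450017_at, the dimmest Ccng1 probe set, signals were 1166.9, 1034.4, 883.6 and 1526.4 in UU and 1674, 2232.6, 1736.8, 1853 and 2010.2 in CC. UC samples spanned both groups, from 1123.6 to 2289.3. The 4 UU samples all lay below the lowest CC sample, a separation that 3.61% of all probe sets showed, with a log2 difference of -0.73 ± 0.21 (limma adjusted p = 0.157, and 0.12 to 0.426 over the alternative fits). The third, 1450016_at, ran from 1183.7 to 3302.2 in UU and 2215.9 to 3550.9 in CC, and the groups overlapped.

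The 3 Ccng1 probe sets, all annotated to the same source sequence, thus gave differences of one sign in both comparisons with UU. They were -0.35, -0.44 and -0.73 for UU over CC and 0.51, 0.45 and 0.54 for UC over UU, in order from the brightest to the dimmest, and the comparisons share the UU samples. For UC over CC they were 0.16, 0.01 and -0.19, with no common sign. Without the 4 samples low in epididymis markers, the brightest gave -0.23 and the dimmest -0.66 for UU over CC, and the dimmest gave 0.26 for UC over UU. Single samples also moved these values, since without UU replicate 1 the middle probe set gave -0.17 for UU over CC and 0.18 for UC over UU, and without UU replicate 4 it gave -0.66 for UU over CC. Without CC replicate 2, or without both samples of high Xist, the brightest gave -0.20 for UU over CC. With the 3′ over 5′ ratio as a covariate, the brightest gave -0.46 and the dimmest -0.54 for UU over CC. Without the 3 samples of highest ratio, the dimmest gave 0.096 for UC over CC, so that its sign turned there. Markers of other cells moved with UU, and their part in these differences was not tested. The 8 adipocyte markers summed to 135018.9 to 233435.1 in UU, 204233.8 to 377832.7 in UC and 200191.5 to 328709.7 in CC. The 10 epithelial markers summed to 60724 to 79149 in UU, 8261.2 to 54311 in UC and 7364.1 to 62988 in CC. The 10 macrophage markers, 9 of them above the filter, summed to 16179 to 32384 in UU, 31148 to 74520 in UC and 30537 to 89999 in CC. The 9 endothelial markers, 8 of them above the filter, summed to 8827.3 to 12739 in UU, 11584 to 17460 in UC and 12766 to 21890 in CC, so that UU lay wholly below CC. By the mean log2 level, UU lay wholly below CC in adipocyte and macrophage markers too. Adipocyte levels were 12.67 to 13.65 in UU, 13.72 to 14.53 in UC and 13.74 to 14.55 in CC. Macrophage levels were 10.07 to 10.81 in UU, 10.63 to 12.02 in UC and 10.85 to 12.20 in CC. The 3 Ccng1 probe sets also tracked each other in part. Their pairwise Pearson r over 14 samples was 0.55 (permutation p = 0.0401), 0.48 (permutation p = 0.0822) and 0.56 (permutation p = 0.0347), with rho of 0.54, 0.53 and 0.51 (permutation p of 0.05, 0.0555 and 0.0654), and none passed adjustment over the 6 pairs (adjusted p of 0.0802 to 0.123 for r, and 0.098 for each rho). Leaving out the 2 samples farthest from the median of the brightest, CC replicate 2 and UU replicate 1, lowered its r with the others to 0.20 and 0.27, so that relation rests on those samples. The pair 1450016_at and 1450017_at kept r = 0.53 without UU replicate 1 and UC replicate 1.

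**Figure D3:**
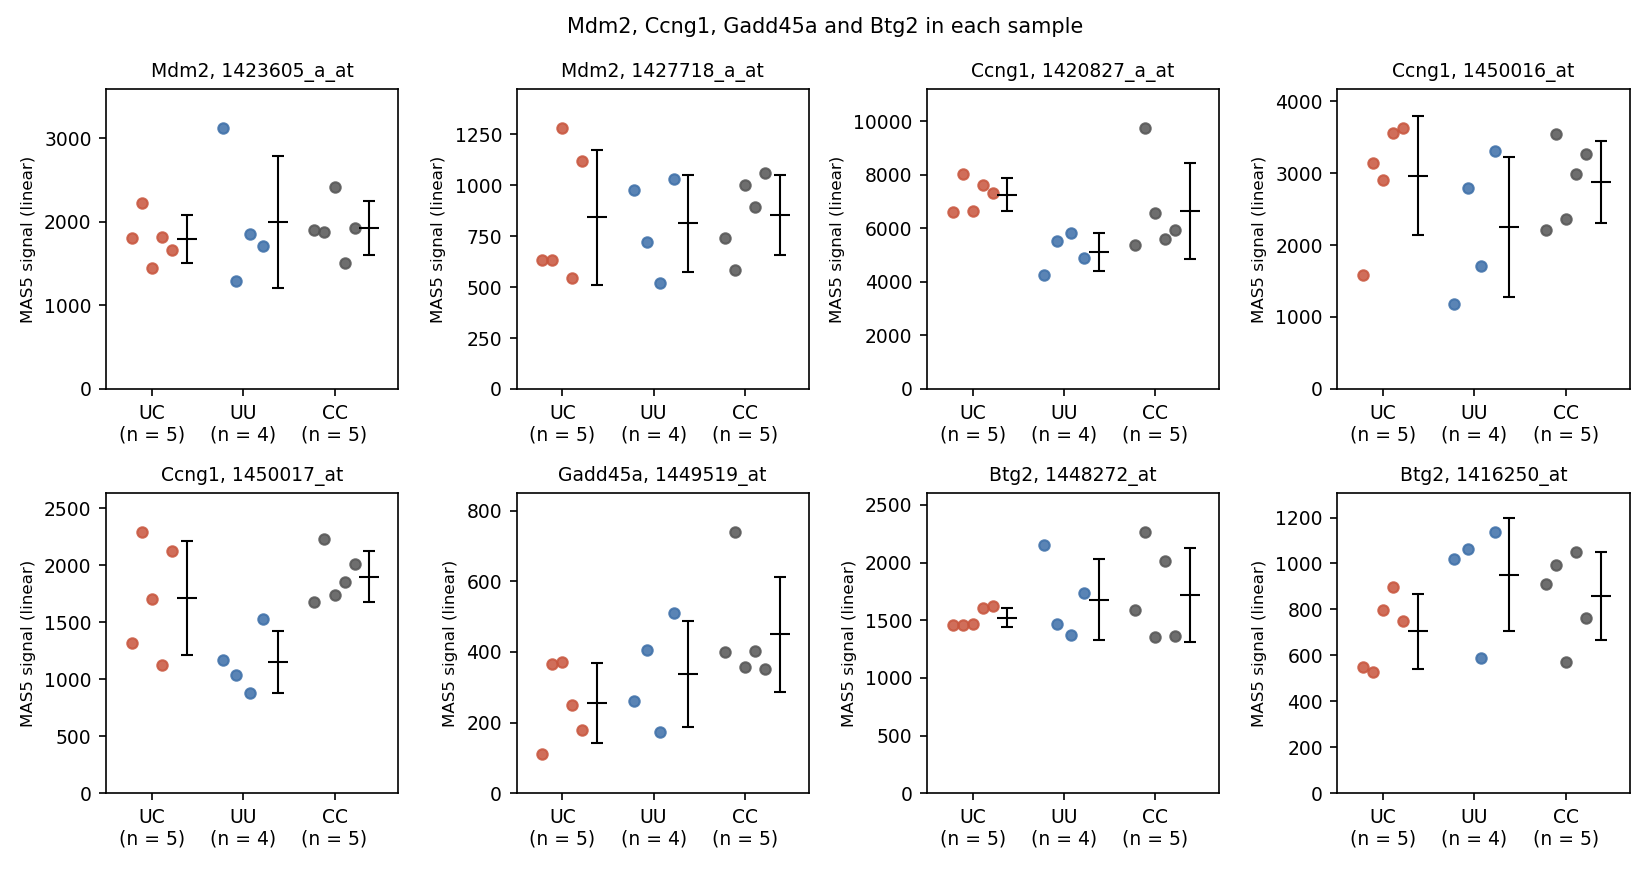
MAS5 signal on a linear scale for the 8 probe sets of Mdm2, Ccng1, Gadd45a and Btg2, 1 point per sample with the mean ± SD of each group beside it. In Ccng1 1420827_a_at the 5 UC samples (6628.9 to 8039.3) lie above the 4 UU samples (4247.9 to 5826.7), in Ccng1 1450017_at the UU samples (883.6 to 1526.4) lie below the CC samples (1674 to 2232.6), and the Mdm2 and Btg2 groups overlap.

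Mdm2, at chr10:117688875-117710758, the negative regulator and target of p53, had overlapping groups by both probe sets. Probe set 1423605_a_at had a signal of 1794 ± 283 in UC, 1994 ± 789 in UU and 1927 ± 322 in CC. The spread in UU came from 1 sample, with UU replicate 1 at 3122.1 and the other 3 at 1288.2 to 1852.4. The log2 difference was -0.10 (95% interval -0.54 to 0.34) for UC over CC and -0.01 (-0.48 to 0.45) for UU over CC. Their upper limits lie below the Cdkn1a differences of 1.08 in UC and 0.73 in UU over CC. The UC over CC contrast chose Cdkn1a and both use the same CC samples, so nothing is read from this. Probe set 1427718_a_at, at 546.8 to 1281.3 in UC, 519.4 to 1030.6 in UU and 582 to 1059.2 in CC, gave -0.07 and -0.09 with wider intervals of -0.63 to 0.49 and -0.69 to 0.51. The 2 Mdm2 probe sets gave Pearson r = -0.02 (permutation p = 0.948, adjusted p = 0.948) and Spearman rho = -0.16 (permutation p = 0.575, adjusted p = 0.69) over the 14 samples. Without UU replicates 1 and 2, r was -0.32. Without the 4 samples low in epididymis markers, 1423605_a_at gave -0.29 for UC over CC and -0.13 for UU over CC, and 1427718_a_at gave -0.26 and -0.22. Without the 2 samples of high Xist, 1427718_a_at gave -0.31 and -0.21. With the 3′ over 5′ ratio as a covariate it gave 0.27 and 0.20, so that its sign turned in both comparisons.

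Gadd45a, at chr6:67035096-67037407, a growth arrest and DNA damage gene, was dim and below the signal filter, so it has no p. Its signals were 110.1, 366.3, 370.1, 249.5 and 179.9 in UC, 261, 405.9, 172.2 and 509.4 in UU and 398.7, 738.2, 356.8, 401.8 and 351.4 in CC. In 3 of 5 UC samples it lay below the lowest CC sample, and 2 of 4 UU samples did so, with the others within the CC range. The log2 difference was -0.80 ± 0.36 for UC over CC and -0.43 ± 0.38 for UU over CC, the opposite sign to Cdkn1a in both. Leaving out single samples moved the UC difference between -0.94 and -0.57, and with the 3′ over 5′ ratio as a covariate it was -0.51 in UC and -0.18 in UU. Without the 2 samples of high Xist it was -0.53 in UC and -0.24 in UU, and without the 4 low in epididymis markers -0.67 and -0.21. The UU difference was also -0.17 without UU replicate 3, -0.24 without CC replicate 2 and -0.64 without UU replicate 4.

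Btg2, at chr1:134074865-134079155, an antiproliferative target of p53 that is also an immediate early gene, had groups that overlapped in every comparison. Probe set 1448272_at was at 1522 ± 81.8 in UC, 1679 ± 349 in UU and 1716 ± 406 in CC, with log2 differences of -0.14 ± 0.17 for UC over CC and -0.02 ± 0.18 for UU over CC. Probe set 1416250_at was at 704 ± 162 in UC, 952 ± 246 in UU and 858 ± 193 in CC. It gave -0.27 ± 0.23 for UC over CC, 0.13 ± 0.24 for UU over CC and -0.41 ± 0.24 for UC over UU (limma adjusted p = 0.411), which was -0.61 without UU replicate 3. Without the 4 samples low in epididymis markers, 1416250_at gave -0.01 for UC over CC and 0.32 for UU over CC, and 1448272_at gave 0.08 and 0.20, so that the sign of the small 1448272_at differences turned. The 2 Btg2 probe sets tracked each other best of the 6 pairs (Pearson r = 0.67, permutation p = 0.00935, adjusted p = 0.0561, and Spearman rho = 0.68, permutation p = 0.00881, adjusted p = 0.0529), also without CC replicate 2 and UU replicate 1, where r was 0.67.

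Limma called none of the 8 member probe sets above the filter in any of the 3 comparisons at an adjusted p under 0.05. Over all 13575 probe sets it called 0% in UC over CC, 0% in UU over CC and 0.427% in UC over UU. At an unadjusted p under 0.05 there was 1 of the 8 in UC over CC, Cdkn1a itself, where the share over all probe sets was 9.22% and from which nothing is read. There were 2 of 8 in UU over CC, Cdkn1a 1424638_at and Ccng1 1450017_at, and 2 of 8 in UC over UU, both of Ccng1, against 16.1% of all probe sets in each of these comparisons. Groups did not overlap for 1 of 8 in UU over CC on the lower side, where 3.61% of all probe sets did the same, and for 1 of 8 in UC over UU on the higher side, against 2.9%. These 8 probe sets belong to 4 genes, and those of 1 gene are not independent.

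**Figure D4:**
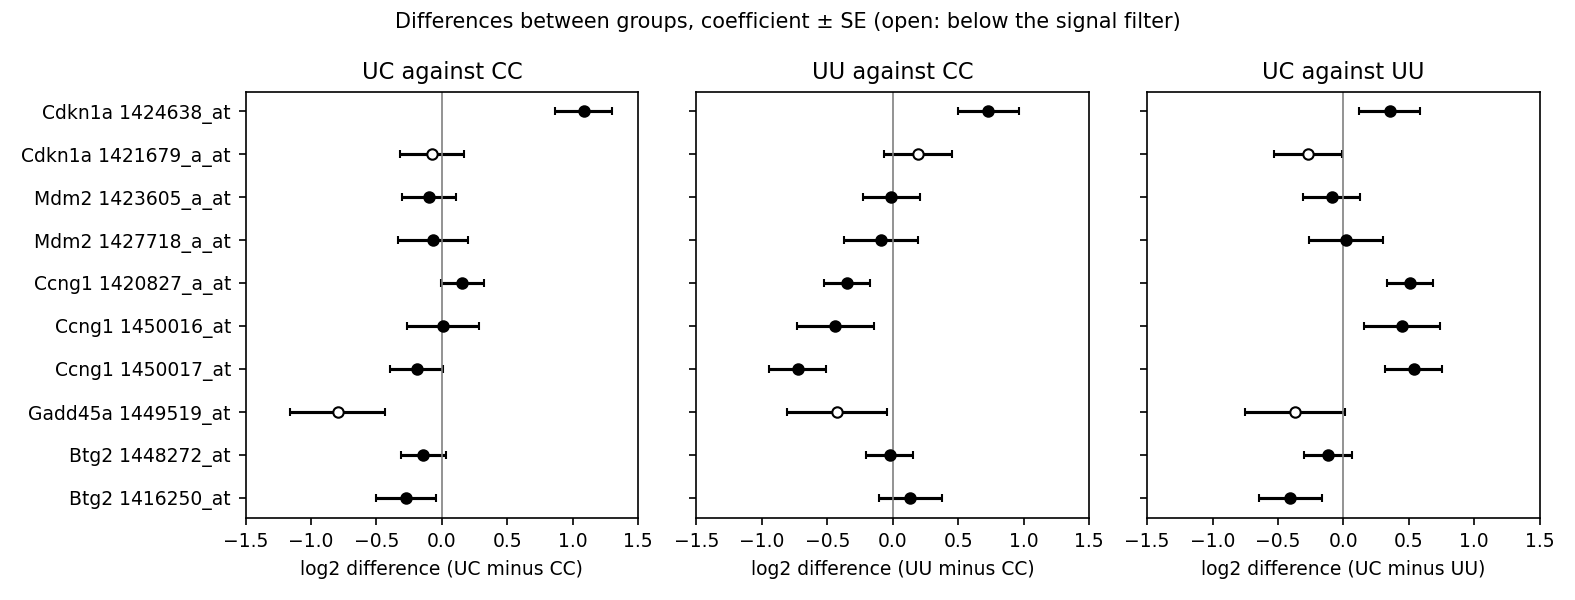
Log2 difference ± SE of the 10 member probe sets in UC over CC, UU over CC and UC over UU, from limma on log2(signal + 32). Open points are the 2 probe sets below the signal filter. Cdkn1a 1424638_at stands at 1.08 and 0.73 in the first 2 panels, the 3 Ccng1 probe sets lie below 0 in UU over CC and above 0 in UC over UU, and Gadd45a stands at -0.80 in UC over CC and -0.43 in UU over CC.

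Other p53 targets lay on both sides of 0 while Cdkn1a was higher. Of 13 arrest and stress targets above the filter, from 18 listed, 3 were above 0 and 10 below in UC over CC, with a median log2 difference of -0.32, where 46.5% of all probe sets lay above 0 and the median over all 8272 genes was -0.004. In UU over CC it was 8 and 5 with a median of 0.04, against 0.06 over all genes. No probe set of this list was called by limma in any comparison. By the rule of brightness the list is represented by Btg1, Ccng2 and Ndrg1. Ccng2, the FOXO-responsive relative of cyclin G1, was at 5978 ± 1061 in UC, 4023 ± 1165 in UU and 4410 ± 965 in CC, which gave 0.44 ± 0.19 on the log2 scale for UC over CC (limma adjusted p = 0.52), and its dimmer probe set gave -0.35. Btg1, an antiproliferative relative of Btg2, gave 0.21 ± 0.21 from the brighter probe set and -0.17 from the other in the same comparison. The stress-responsive Ndrg1 gave -0.44 ± 0.25, and its other 3 probe sets above the filter ran from -0.58 to -0.51.

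The 13 cell death targets above the filter, of 19 listed, had medians of -0.03 for UC over CC and -0.04 for UU over CC. Dram1, a lysosomal p53 target that promotes autophagy, was at 7049 ± 471 in UU, with all 4 samples between 6581.6 and 7479.4, and at 13554 ± 3971 in CC, from 10500 to 18903. The groups did not overlap, as was so on this side for 3.61% of all probe sets, and the difference of -0.90 ± 0.23 was not called (limma adjusted p = 0.127). UC, at 12699 ± 3545, differed from CC by -0.10 ± 0.22. The lower adipocyte, macrophage and endothelial marker sums in UU given above stand beside this value too, with means of 26470 in UU and 51383 in CC for macrophages, and their part was not tested. Trp53inp1, a stress-induced cofactor of p53, was at 5702 ± 2286 in UU and 3275 ± 441 in CC, a difference of 0.71 ± 0.28 (limma adjusted p = 0.243), with 0.57 from its second probe set. Ei24, an endoplasmic reticulum protein gene induced by p53, gave -0.25 ± 0.15 for UC over CC and -0.16 ± 0.16 for UU over CC. Perp, a desmosomal p53 target named here after its values were seen, averaged 2387 ± 458 in UU and 1504 ± 906 in CC. The epithelial markers moved with it, and their part in the result was not tested.

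Repair and metabolic targets had a median of 0.06 in UC over CC and 0.33 in UU over CC, over 8 genes above the filter of 13 listed. In UU 7 of the 8 lay above 0, as did 54.1% of all probe sets. Rps27l, a ribosomal protein relative induced by p53, was the exception, with -0.10 ± 0.18 in UU over CC and 0.25 ± 0.17 in UC over CC. Ninj1, a membrane protein gene, gave 0.26 ± 0.15 in UU over CC. Regulators of p53 had medians of -0.12 and 0.11 over 13 genes of 18 listed. Usp7, the deubiquitinase of Mdm2 and p53, was at 5388 ± 648 in UU and 4002 ± 225 in CC (0.42 ± 0.15, limma adjusted p = 0.194). The ubiquitin ligase gene Cop1 gave -0.24 ± 0.13 and the kinase gene Hipk2 -0.46 ± 0.22 in the same comparison, neither of them called. The other Hipk2 probe sets above the filter ran from -0.15 to -0.004.

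Among the other inhibitors of cyclin-dependent kinases, the 3 brightest were Cdkn2c, Cdkn1b and Cdkn1c. Cdkn1b, encoding p27, was at 3160 ± 419 in UC, 4686 ± 1558 in UU and 3032 ± 415 in CC, which gave log2 differences of 0.06 ± 0.18 for UC over CC and 0.58 ± 0.19 for UU over CC (limma adjusted p = 0.184), where UU replicate 3 reached 6862.1. Cdkn1c, the imprinted p57 gene, gave -0.58 ± 0.28 in UC over CC and -0.51 ± 0.29 in UU over CC. Cdkn2c, encoding p18, gave 0.32 ± 0.27 and -0.30 ± 0.28. The median over 5 genes above the filter, of 7 listed, was 0.03 in UC over CC and -0.30 in UU over CC.

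The genes p21 acts on were examined next. The 10 cyclin, kinase and PCNA genes above the filter, of 11 listed, had medians of 0.07 in UC over CC and 0.10 in UU over CC. Ccnd2, cyclin D2, was at 10223 ± 2784 in UC and 7442 ± 1961 in CC (0.46 ± 0.20, limma adjusted p = 0.52), with its other probe sets above the filter between 0.17 and 0.68. In the same comparison Ccnd1, cyclin D1, gave 0.07 ± 0.20 and Pcna -0.04 ± 0.19. Of 22 cell cycle genes repressed through the DREAM complex when p21 is active, of 30 listed, 18 were above 0 in UC over CC (median 0.21) and 17 in UU over CC (median 0.19), beside medians over all genes of -0.004 and 0.06. Rrm2, a ribonucleotide reductase subunit gene, was at 3565 ± 1207 in UC, 3840 ± 1682 in UU and 2368 ± 525 in CC, and gave 0.56 ± 0.28 in UC and 0.61 ± 0.30 in UU over CC. Cdc20, of the anaphase-promoting complex, gave 0.49 ± 0.27 and 0.27 ± 0.28, and the helicase gene Mcm7 0.16 ± 0.19 and 0.38 ± 0.20. Probe sets of a gene differed here, the second of Cdc20 giving 0.03 and another of Mcm7 -0.44 in UC over CC. The brightest of Rrm2 and Cdc20 are of a type that can share probes with other transcripts. The brightest of Ndrg1, Rps27l, Ninj1 and Hipk2, and those used for the liver markers Ttr, Serpina1b and Apoa1 and the epithelial marker Spint2, are of the same type. No probe set of any of these lists was called by limma in any comparison.

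**Figure D5:**
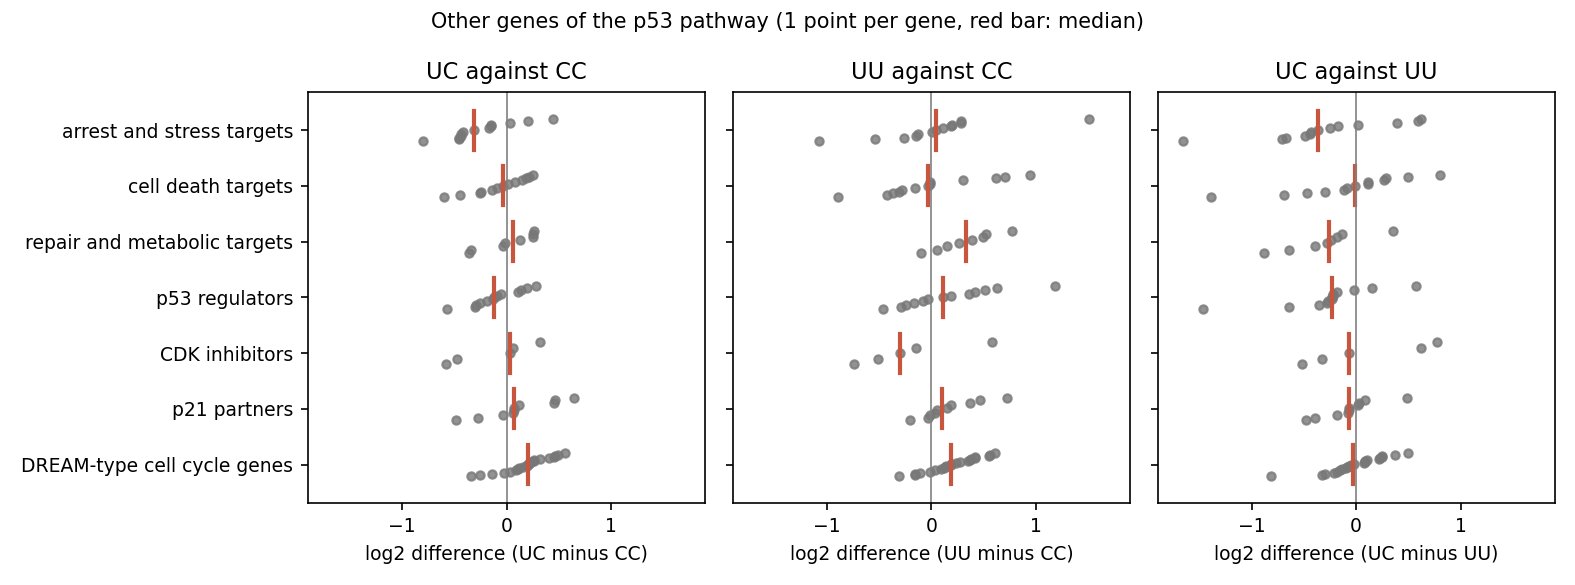
Log2 difference of each gene of 7 p53 pathway lists above the signal filter (brightest probe set, 1 grey point per gene) in UC over CC, UU over CC and UC over UU, with the list's median as a red bar. Medians in UC over CC run from -0.32 for arrest and stress targets to 0.21 for cell cycle genes of the DREAM complex, and the genes of every list fall on both sides of 0.

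The genes whose levels ran most like Cdkn1a 1424638_at over the 14 samples, among 8271 genes above the filter, were Elavl1, Iars, Ttr, Pzp, Snrpc and Set. Their Pearson r with it ran from 0.86 to 0.82, given as a description without a p, since they were picked as the highest of many and the samples share their groups. After the group means were taken out, r was 0.61 to 0.87. Ttr, the transthyretin gene, which is also on the list of liver markers, averaged 9183 in UC, 1062 in UU and 317 in CC. Pzp, a plasma protease inhibitor gene, averaged 2736 in UC, 3297 in UU and 706 in CC. Elavl1, an RNA-binding protein gene, varied far less, at 3654 in UC, 3344 in UU and 2918 in CC. No member and no gene of the wider p53 lists was among the 6. Of the members, Mdm2 had r = 0.11 with Cdkn1a, Ccng1 -0.03, Btg2 -0.53 and Gadd45a -0.58 by their brightest probe sets, in the same description over 14 samples.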

How the data were processed

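RNA of 14 fat samples was hybridised to single-channel Affymetrix arrays. The deposited table holds a linear intensity per probe set, for which the submitters' processing notes name MAS5 and GCOS 1.3; each array's mean after trimming 2% at each end was 1500.45 to 1500.57. Detection calls were not used here, and the number of arrays limits the precision. Members and lists were chosen with earlier results of these data known. Symbols came from the platform annotation, updated through Entrez identifiers to RefSeq. Values were transformed as log2(signal + 32), control probe sets were left out, and so were the dimmest 40% by mean over all arrays, leaving 13575 probe sets. All 14 arrays entered one model in limma 3.58.1 (R 4.3.3; eBayes with a trend) with 3 two-sided contrasts and Benjamini-Hochberg adjustment, called at 0.05. The fit was tested on simulated data. Probe set pairs were compared with 100000 permutations. Named genes are all member probe sets, the 3 brightest genes of each pathway list, any called, and the 6 genes most like Cdkn1a; Perp is an exception. Alternatives covered pseudocount, filter, normalization, probe set choice, variance model, block, covariates and left-out samples. The replicate numbers of the titles were not taken to pair the samples. After group means were removed, same-numbered samples correlated at -0.25 to 0.40, over 0.1 in 6 of 13 pairs. Their median was 0.057, against -0.030 for samples of other numbers. These correlations cannot settle whether the numbers mark pairs. Promoters are from RefSeq, GRCm38.p6.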

Additional observations from a re-analysis of the deposited data

Results flagged for a closer look

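Of 30 sets of values examined (10 member probe sets in 3 groups), 3 held a sample far from the others of its group, and chance flags about 1 in 20. Gadd45a stood at 738.2 in CC replicate 2, against 351.4 to 401.8 in the other CC samples. Ccng1 1450016_at stood at 1589.3 in UC replicate 1, against 2906.7 to 3625.9 in the other UC samples. Btg2 1416250_at stood at 589 in UU replicate 3, against 1021.4 to 1135.4 in the other UU samples.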

How the results depend on the processing

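No member probe set was called in any of the 31 alternative fits of each comparison. All 894 alternative log2 differences of the members, over 30 probe set and comparison pairs, stayed within 1 SD between samples of the value reported. That margin is larger than many of the differences themselves, and signs were not always kept. Btg2 1448272_at kept its sign in 20 of 31 alternatives in UU over CC, and Mdm2 1427718_a_at in 22 of 29 in UC over CC. Cdkn1a 1424638_at stayed above 0 in all 31 alternatives of each comparison, from 0.81 to 1.27 in UC over CC and from 0.38 to 0.92 in UU over CC. The UC over CC contrast chose this gene, and UU over CC uses the same CC samples. These refits therefore describe the range of the values and do not test the difference. Over all probe sets, the count called in UC over CC was 0, and 1 without the 4 samples low in epididymis markers. In UU over CC it was 0, with 29 under array weights, 6 with the epididymis level as a covariate, 5 with the replicate block and 1 each for eBayes without a trend, the liver level as a covariate and leaving out the 2 samples with Xist signal or the 4 low in epididymis markers. Leaving out single samples gave 0 to 9. In UC over UU it was 58, with 16 for no filter, 91 with the dimmest 60% left out, 132 with median centring, 14 for eBayes without a trend, 151 with the 3′ over 5′ ratio as a covariate, 0 with the epididymis or the liver level as a covariate, 1 with the 2 samples of high Xist left out, 1 with the 4 low in epididymis markers left out, 3 without the 3 samples of highest 3′ over 5′ ratio and 1 with only the 2 groups compared. Leaving out single samples gave 0 to 110 there, and the replicate block 78, from numbers that are not known to pair the samples. The causes were not tested. Without the 4 samples low in epididymis markers, r between probe sets was -0.23 for Cdkn1a and 0.0922 for Ccng1 1420827_a_at with 1450017_at. Probe sets near the floor, such as the second of Cdkn1a, limit what the agreement of probe sets can show.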
